A study of Mus musculus with 8 samples.

Results

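Cysteine protease inhibitors and lysosomal proteases were examined in inflamed mouse epidermis with and without a knockout of Hnrnpu, which encodes the RNA-binding protein hnRNP-U. The set holds 10 of the 23171 genes in the deposited count table: the cystatins Cst6, Cst3 and Cstb, the cathepsins Ctsl, Ctsb, Ctsh, Ctsc, Ctss and Ctsd, and the asparaginyl endopeptidase Lgmn (legumain). Members were taken by gene symbol. Cst6 was chosen by its measured level, which had been seen higher in knockout than in control epidermis in these libraries, so that difference is described below without a test. The other 9 were taken for their family, with earlier results of these data known. All 10 passed the filter on low counts that left 14004 genes for testing.

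RNA came from the epidermis of mice given imiquimod, which activates Toll-like receptor 7 and serves to model psoriasis on mouse skin. The knockout group (cKO, 4 libraries) carries an epidermis-specific loss of Hnrnpu, and the other group (WT, 4 libraries) holds control mice. Both groups received imiquimod, so no untreated level stands beside these values. The sources used here do not give the Cre driver, the deleted exons, the strain, the age or the length of treatment. The design text counts 4 mice per genotype.

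Libraries held 37158621 to 38865722 counts and 18265 to 18992 genes with at least 1 count. Hnrnpu was at 190, 373, 355 and 312 CPM (counts scaled to library size with TMM factors) in cKO replicates 1 to 4, and between 424 and 455 CPM in WT. No cKO library reached the WT range, but transcript remained in all 4. Keratinocyte markers, which check the labelled cell type, were abundant, and the 7 listed (Krt5, Krt14, Krt15, Krt1, Krt10, Trp63 and Dsg3) summed to 58741 to 83067 CPM in cKO and 66430 to 87148 CPM in WT. Fibroblast markers summed to at most 3.75 CPM in cKO and 9.92 CPM in WT, and endothelial markers to at most 1.20 and 1.56 CPM. In bulk RNA, fewer cells of a type and less RNA per cell cannot be told apart.

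Cystatins are tight-binding inhibitors of papain-like cysteine proteases. Cathepsins L, B, H, C and S are such proteases, cathepsin D is an aspartic protease, and legumain cuts after asparagine, all of them made as precursors and matured in acidic lysosomes. Cystatin M/E, the product of Cst6, is secreted by granular keratinocytes and by follicle epithelium and inhibits cathepsin L, cathepsin B and legumain. Mice that lack Cst6 develop a scaling, hyperkeratotic skin disease, and mice that lack Ctsl lose hair and have a thickened epidermis, so the balance of this inhibitor and its target proteases is a known determinant of cornification.

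Lysosomal hydrolase genes are known to share an E-box with the core CACGTG in their promoters, bound by transcription factors of the TFEB and TFE3 group. The 250 bases before the annotated start are shown for the most abundant cathepsin, Ctsd, and for Ctsl and Ctsc, whose levels differed most between genotypes among the cathepsins. They are RefSeq sequences of build GRCm38.p6, from chr7:142387828-142388077 on the minus strand, chr13:64370521-64370770 on the minus strand and chr7:88277835-88278084 on the plus strand, and capitals mark CACGTG.
Ctsd: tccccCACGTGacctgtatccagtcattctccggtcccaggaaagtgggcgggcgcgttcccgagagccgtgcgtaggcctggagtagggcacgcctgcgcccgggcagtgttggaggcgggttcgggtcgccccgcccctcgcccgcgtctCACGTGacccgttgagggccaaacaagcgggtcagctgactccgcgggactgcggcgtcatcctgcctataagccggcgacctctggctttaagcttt
Ctsl: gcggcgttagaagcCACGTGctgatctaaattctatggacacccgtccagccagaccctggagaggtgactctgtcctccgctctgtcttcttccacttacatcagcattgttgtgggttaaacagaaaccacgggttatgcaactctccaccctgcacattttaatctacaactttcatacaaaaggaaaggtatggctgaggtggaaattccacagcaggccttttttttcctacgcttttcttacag
Ctsc: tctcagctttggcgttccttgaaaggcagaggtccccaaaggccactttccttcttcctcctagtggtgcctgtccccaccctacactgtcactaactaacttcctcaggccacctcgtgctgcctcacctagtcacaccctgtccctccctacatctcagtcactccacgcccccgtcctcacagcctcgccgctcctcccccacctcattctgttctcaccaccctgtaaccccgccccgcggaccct
The motif starts 245 and 98 bases before the start of Ctsd and 236 bases before that of Ctsl, and these letters are not in the Ctsc window. Ctsl has 5 protein-coding transcripts in GENCODE M21, and whether the start shown is the one used in epidermis was not tested. Its window may therefore not be its main promoter. CACGTG is its own reverse complement, so 1 search covers both strands, and no other motif was searched. Windows were found for 6 of the 10 members, and 3 of their 7 windows hold it, the third belonging to the inner of the start sites of Lgmn. Of all 32851 windows of this length 6.02% hold the motif, and of the windows of tested genes 8.02%. Among the lists described below, 11 of 35 windows of other lysosomal genes and 4 of 16 of other cathepsins and lysosomal peptidases hold it. It is in 0 of 21 windows of other cystatins and 0 of 15 windows of cornified envelope genes. A match is a description of the letters and shows no binding. Cst6, Cstb, Ctsb and Ctsh had no entry.

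Cst6 was at 1852, 1684, 1924 and 2313 CPM in cKO replicates 1 to 4. In WT replicates 1 to 4 it was at 667, 807, 447 and 341 CPM. Every cKO library lay above every WT library. The mean in cKO was 1943 ± 266 CPM and that in WT 565 ± 210 CPM (SD over 4 libraries), a difference of 3.44-fold in the model (log2 fold change 1.78 ± 0.26 SE). Relative spread was wider among WT libraries, with a coefficient of variation of 37.2% against 13.7% in cKO. Leaving out single libraries gave log2 fold changes from 1.60 to 2.01. Among skin cell types, markers of the upper hair follicle (Krt79, Krt75, Lrig1, Lgr6, Sox9 and Krt17) summed to 4157 to 6205 CPM in cKO and 2960 to 3275 CPM in WT. Their order among cKO libraries differs from that of Cst6 at the middle ranks but shares the extremes, with replicate 2 lowest and replicate 4 highest in both. In WT, replicate 4 had the highest marker sum and the lowest Cst6. The 7 sebocyte markers summed to 3066 to 7405 CPM in cKO and 6455 to 9218 CPM in WT, most of it from Fabp5, which keratinocytes also express (means of 4595 and 7679 CPM). Without Fabp5, a split made after the values were seen, the summed level of the other 6 was higher in cKO, at 194 to 603 CPM in cKO and 78.4 to 193 CPM in WT, and none of the 6 was at 0 in all libraries. Melanocyte markers also lay higher in cKO, with sums of 51.2 to 110 CPM against 30.2 to 48.9 CPM in WT. Endothelial markers lay lower, at 0.672 to 1.20 CPM against 1.23 to 1.56 CPM in WT. The follicle sum was not split by gene, so the part of Krt17, a stress keratin, in it is not given. By gene, all 6 follicle markers had positive log2 fold changes (median 0.78). Of these 6, edgeR called 3 higher (Krt79, Krt75 and Lgr6), where it called 0.671% of all tested genes higher. In the other marker lists it called only Cidea (sebocytes), higher, and Tchh (inner root sheath and hair matrix), lower. The part of these cell populations in the Cst6 difference was not tested.

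Cst3 encodes cystatin C, a secreted inhibitor made by most cells. It was at 494, 624, 614 and 411 CPM in cKO replicates 1 to 4 and at 552, 515, 528 and 440 CPM in WT replicates 1 to 4. The genotypes overlap, with both the highest and the lowest library in cKO. The log2 fold change was 0.076 (95% confidence interval -0.26 to 0.41, edgeR quasi-likelihood adjusted p = 0.834), which spans 0.837 to 1.33 times the WT level. Cstb encodes stefin B, the cytosolic inhibitor of cathepsins. Its levels were 543, 470, 315 and 398 CPM in cKO and 362, 393, 484 and 490 CPM in WT. The ranges overlap and the log2 fold change was -0.0031 (-0.40 to 0.39, edgeR adjusted p = 0.995), a value whose sign depends on the scaling, being 0.052 with library size alone.

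**Figure D1:**
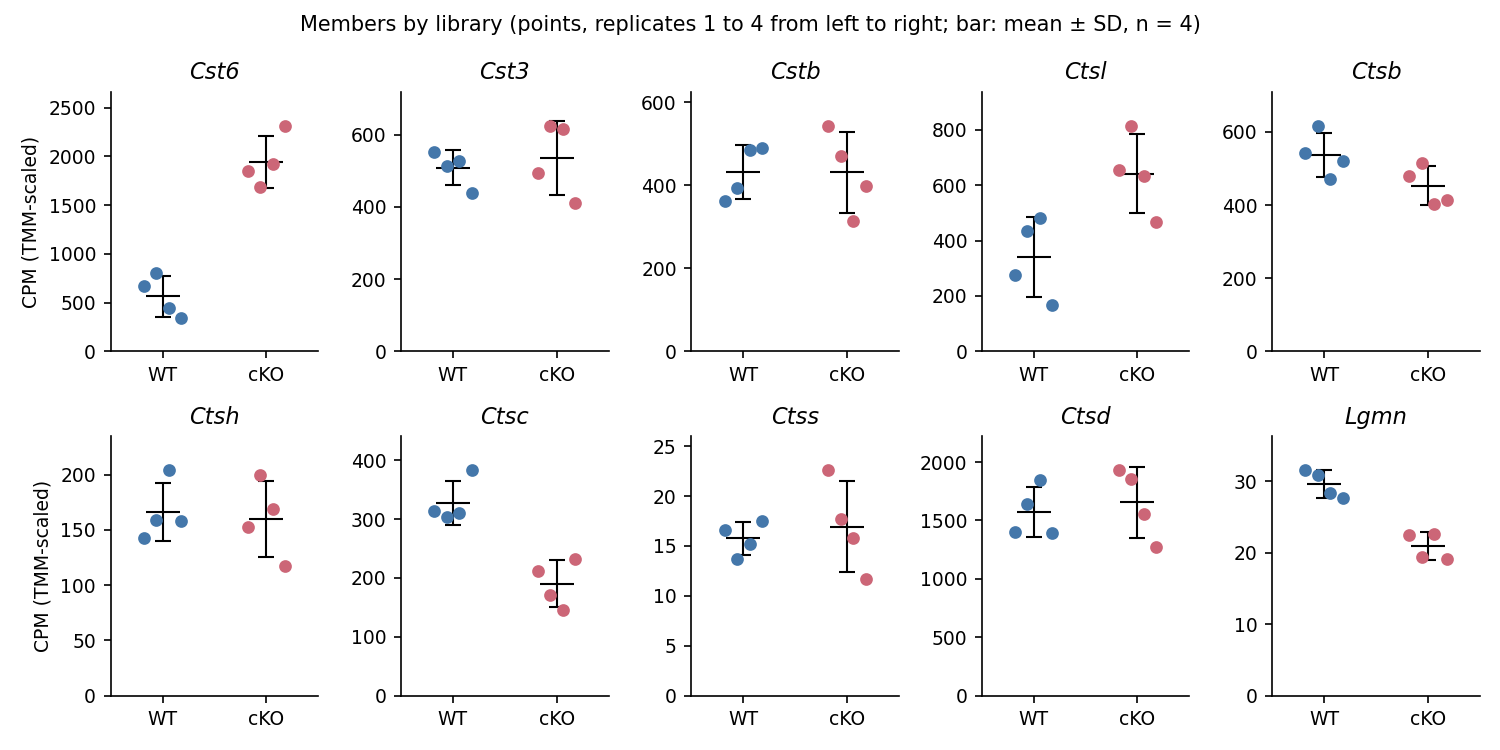
TMM-scaled CPM of the 10 members in the 4 WT (blue) and 4 cKO (red) libraries, with replicates 1 to 4 from left to right and the mean ± SD as bars. The genotypes do not overlap for Cst6, Ctsc and Lgmn, and for Ctsl the lowest cKO library (465) lies just under the highest WT library (481).

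Among the other 9 members none was called by the edgeR quasi-likelihood test, which called 1.32% of all tested genes at an adjusted p below 0.05 (0.671% higher and 0.65% lower in cKO). At an unadjusted p below 0.05 there were 3 of 9 (Ctsl, Ctsc and Lgmn), against 18.6% of all genes. DESeq2 called 3 of 9, the same 3, where it called 8.63% of all genes. limma-voom called 1, Ctsc, against 1.21% of all genes. limma on log2(FPKM + 1) and on log2(FPKM + 0.1) called 0, where it called 1.27% and 1.47% of the genes tested on those scales. The genotypes did not overlap for 2 of the 9, Ctsc and Lgmn, both lower in cKO, as they did not for 11.1% of tested genes in either direction and 5.82% in that direction. No member besides Cst6 lay wholly higher in cKO, as 5.26% of genes did. The median log2 fold change of the 9 was -0.0031, with 4 positive and 5 negative, beside 0.011 over all tested genes.

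Ctsl encodes cathepsin L, the keratinocyte endopeptidase that cystatin M/E inhibits. It was at 653, 814, 632 and 465 CPM in cKO replicates 1 to 4 and at 276, 436, 481 and 167 CPM in WT replicates 1 to 4. On this scale only cKO replicate 4 dipped into the WT range, below WT replicate 3. On the deposited FPKM scale, which uses no TMM factor, the genotypes did not overlap, with 141 to 212 in cKO and 45.7 to 129 in WT. The log2 fold change was 0.91 ± 0.31 (SE, 95% confidence interval 0.22 to 1.61), and it did not pass (edgeR adjusted p = 0.162, exact two-sided permutation p = 0.0571). The smallest p that 4 against 4 allows is 0.0286. The DESeq2 adjusted p was 0.0427, in a range of 0.0427 to 0.281 over all alternatives. Without WT replicate 4, the library with the lowest Ctsl, the log2 fold change was 0.69.

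Ctsc encodes cathepsin C, the dipeptidyl peptidase that activates the granule serine proteases of neutrophils and other leukocytes. It was at 212, 170, 145 and 233 CPM in cKO and at 313, 303, 310 and 383 CPM in WT. All cKO libraries were below all WT libraries, and WT replicate 4 stood apart from the other WT libraries. In the model the cKO level was 58.0% of that in WT (95% confidence interval of the log2 fold change -1.14 to -0.43, around -0.79 ± 0.16 SE). The edgeR adjusted p of 0.0509 lies at the edge of the threshold, and the exact permutation p was 0.0286. It passed with DESeq2 (adjusted p = 4.65e-04), with limma-voom (0.0476), with no low-count filter (0.0311) and without cKO replicate 4 (0.0429). With the replicate number as a block it passed as well (0.0365), in a range up to 0.132 over all alternatives. Neutrophil markers (6 of 8 in the table) summed to 6.58 to 30.0 CPM in cKO and 18.7 to 35.9 CPM in WT, and macrophage and monocyte markers (9 of 9) to 33.6 to 76.5 and 46.9 to 57.8 CPM. No list had a measured marker at 0 in every library, and the part of these cells in the Ctsc level was not tested.

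Lgmn encodes legumain, the other main target of cystatin M/E. Its levels were low and even, at 22.5, 19.4, 22.6 and 19.1 CPM in cKO and 31.5, 30.9, 28.3 and 27.6 CPM in WT, from 693 to 1203 counts per library. The genotypes do not overlap. Its spread was the smallest of the 10 members in both genotypes, with coefficients of variation of 9.20% in cKO and 6.53% in WT. In the model the cKO level was 70.7% of that in WT (95% confidence interval of the log2 fold change -0.73 to -0.27, around -0.50 ± 0.10 SE). It missed the threshold by a small margin (edgeR adjusted p = 0.0510, exact permutation p = 0.0286). It passed with DESeq2 (adjusted p = 4.51e-04) and in edgeR with no low-count filter (0.0493), in a range up to 0.127 over all alternatives.

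Ctsb encodes cathepsin B, a lysosomal endopeptidase and carboxydipeptidase. Its levels stood at 478, 516, 404 and 414 CPM in cKO and at 543, 616, 472 and 520 CPM in WT, with overlapping ranges. The log2 fold change was -0.25 (95% confidence interval -0.52 to 0.02, edgeR adjusted p = 0.306). Ctsd encodes cathepsin D, which is known to act on transglutaminase 1 in keratinocytes. It stood at 1931, 1857, 1559 and 1272 CPM in cKO and at 1403, 1641, 1842 and 1391 CPM in WT, so cKO replicates held both the highest and the lowest value. Its log2 fold change was 0.077 (-0.28 to 0.43, edgeR adjusted p = 0.844), and -0.0020 without cKO replicate 1. In GENCODE M21 the gene Fdft1 overlaps Ctsb on the opposite strand, and unnamed gene models overlap Ctsl and Ctsc in the same way, so reads there could not be assigned with certainty. The intervals reach down to 0.699 times the WT level for Ctsb and up to 1.35 times for Ctsd.

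Ctsh, the aminopeptidase cathepsin H, ran from 117 to 200 CPM in cKO and from 143 to 204 CPM in WT (log2 fold change -0.056, 95% confidence interval -0.44 to 0.33, edgeR adjusted p = 0.900). Ctss encodes cathepsin S, which trims the invariant chain of MHC class II in antigen-presenting cells. It was at 22.6, 17.7, 15.8 and 11.7 CPM in cKO and at 16.6, 13.7, 15.2 and 17.5 CPM in WT. The cKO libraries spread to both sides of the WT libraries, and the log2 fold change was 0.10 (-0.33 to 0.53, edgeR adjusted p = 0.826). Langerhans and dendritic cell markers (8 of 8 in the table, with Cd207, Cd74 and Ciita among them) also spread more in cKO, with sums of 348, 559, 439 and 161 CPM in replicates 1 to 4 against 231 to 316 CPM in WT. Macrophage and monocyte markers summed to 76.5 CPM in cKO replicate 1 and 33.6 CPM in cKO replicate 4, the libraries with the highest and the lowest Ctss. Without cKO replicate 1 the log2 fold change of Ctss was -0.064. The part of these cells in the level of Ctss was not tested.

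Levels can be compared between genes only per length, for which the deposited FPKM values were used. In WT the order was Ctsd (800 ± 95.8 FPKM, SD, n = 4), Cstb (702 ± 94.8), Cst3 (626 ± 65.5), Cst6 (140 ± 53.1), Ctsb (111 ± 13.2), Ctsh (97.0 ± 13.6), Ctsl (92.7 ± 38.3), Ctsc (59.4 ± 6.89), Lgmn (14.4 ± 1.18) and Ctss (10.7 ± 1.25). Neighbours whose WT ranges do not overlap were Cst3 and Cst6, Ctsc and Lgmn, and Lgmn and Ctss, and all other neighbours overlap. In cKO Cst6 stood at 506 ± 98.9 FPKM, with a range of 398 to 633 that reaches the 558 to 827 FPKM of Cst3. Ctsl, at 181 ± 29.9 FPKM, lay above all cKO libraries of Ctsb and Ctsh, whereas its WT mean was below theirs. Ctss and Lgmn overlap in cKO, at 11.8 ± 2.86 and 10.6 ± 1.31 FPKM. The FPKM of Cst6 divides by 3951 bases, which is the longer of its 2 protein-coding transcripts in GENCODE M21, while the shorter has 432 bases. If shorter transcripts supplied the reads, its level per length would be understated. The counts do not tell these transcripts apart, so whether their mix was the same in both genotypes is not known. For Ctsc the FPKM divides by 5393 bases, while its longest protein-coding transcript there has 3220. For Ctsl it divides by 3576 bases, with protein-coding transcripts of 582 to 6168 bases. The order of genes, and the shares and ratios of FPKM, depend on these lengths.

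**Figure D2:**
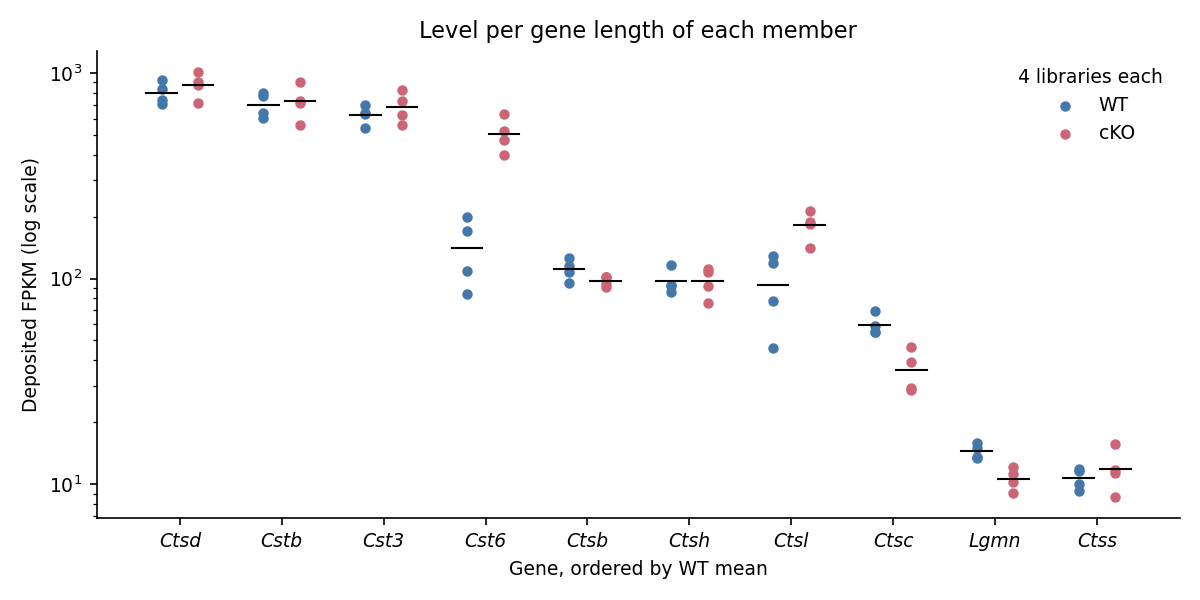
Deposited FPKM on a log axis for the 10 members, ordered by WT mean, with 4 WT (blue) and 4 cKO (red) libraries and black bars at the means. Ctsd, Cstb and Cst3 lie highest in both genotypes, and Cst6 stands at 140 FPKM in WT and 506 FPKM in cKO.

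Summed over the 3 cystatins of the set, expression was 1858 to 1999 FPKM in cKO and 1420 to 1513 FPKM in WT. This sum leaves out the cystatins outside the set, some of them far more abundant and with lower means in cKO. Cstdc5 had means of 19634 FPKM in cKO and 25121 FPKM in WT, and Stfa3 of 8289 and 13428 FPKM. The sum and the share of Cst6 in it therefore do not describe all cystatin transcripts. Cst6 made up 21.4% to 33.2% of that sum in cKO and 5.95% to 13.6% in WT, while Cst3 and Cstb together overlapped between genotypes (1273 to 1528 and 1264 to 1405 FPKM). On the protease side, the 6 cathepsins summed to 1084 to 1442 FPKM in cKO and 1035 to 1325 FPKM in WT. Ctsd supplied 67.3% ± 1.91 of that sum in cKO and 68.3% ± 0.830 in WT (SD, n = 4 each). Within the 5 cysteine cathepsins the composition differed more, with Ctsl at 38.4% to 45.5% of their sum in cKO and 14.0% to 31.7% in WT.

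The ratio of Cst6 to Ctsl, inhibitor over target in FPKM, was 2.57, 1.87, 2.76 and 4.50 in cKO replicates 1 to 4. It was 2.19, 1.67, 0.842 and 1.85 in WT replicates 1 to 4. These ranges overlap, and both genes had higher means in cKO. Against Lgmn the ratio was 41.8 to 61.7 in cKO and 6.29 to 13.3 in WT, with no overlap. Cst6, chosen for its difference, enters the cystatin sum, its share and both ratios, and the members were picked with earlier results known, so these sums, shares and ratios are given as descriptions with no test. Transcript ratios also say nothing of secreted or active protein.

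**Figure D3:**
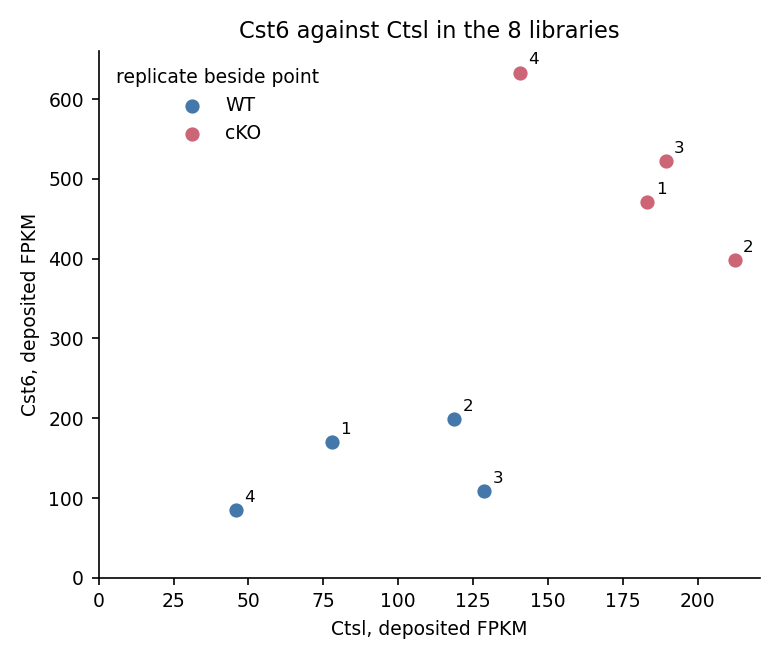
Deposited FPKM of Cst6 against Ctsl in each library, with the replicate number beside each point. WT replicate 4 is lowest for both genes, and cKO replicate 4 has the highest Cst6 (633 FPKM) and the lowest cKO value of Ctsl (141 FPKM).

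Genes related to the members but outside the set were counted in 4 lists. Of 26 other cystatins, 15 were in the table and 12 were tested. None was called by edgeR, with 7 at an unadjusted p below 0.05, 7 called by DESeq2, 3 by limma-voom and 3 by limma on log2(FPKM + 1). Over all genes these shares were 18.6%, 8.63%, 1.21% and 1.27%. The genotypes did not overlap for 5 of the 12, all lower in cKO, as for 5.82% of all genes in that direction. Their fold changes were negative for 11 of 12 (median log2 fold change -0.93), opposite in sign to that of Cst6. Most are stefin A genes, cytosolic inhibitors of cathepsins. The most abundant were Cstdc5, with a cKO mean of 8558 ± 2191 CPM and a WT mean of 11301 ± 1932 CPM (edgeR adjusted p = 0.341), and Stfa3, at 3378 ± 912 and 5659 ± 1065 CPM (adjusted p = 0.114). These copies are near-identical in sequence, and how shared reads were assigned is not given, so values of single stefin A genes are uncertain. Counts over these copies are uncertain too, since the copies may not be independent. Stfa2l1 and Cstdc4, among those that did not overlap and named outside the rule, were near the floor in cKO (means of 0.126 and 0.129 CPM).

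Of 19 other cathepsins and lysosomal peptidases, 14 were in the table and 11 were tested. None was called by edgeR, 2 had an unadjusted p below 0.05, and DESeq2, limma-voom and limma on either FPKM scale called 0 (median log2 fold change 0.13, 9 positive and 2 negative). Over all genes edgeR called 1.32%, 18.6% had an unadjusted p below 0.05, DESeq2 called 8.63% and limma-voom 1.21%. On log2(FPKM + 1) and log2(FPKM + 0.1) limma called 1.27% and 1.47% of the genes tested there. The most abundant were Ctsa, the protective protein cathepsin A, with a cKO mean of 270 ± 67.0 CPM and a WT mean of 263 ± 45.4 CPM (edgeR adjusted p = 0.940). Scpep1, a serine carboxypeptidase, stood at 124 ± 52.3 and 87.9 ± 21.9 CPM (adjusted p = 0.407).

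All 40 other lysosomal genes were tested, and edgeR called 1 lower and 0 higher (6 at an unadjusted p below 0.05, median log2 fold change -0.072, 14 positive and 26 negative). Over all tested genes edgeR called 0.65% lower and 0.671% higher, and 18.6% had an unadjusted p below 0.05. The median log2 fold change over all of them was 0.011. DESeq2 called 4, where it called 8.63% of all genes. Of these Npc2, Galns and Man2b1 were lower and Glb1 was higher in cKO, the last 3 named outside the rule after their values were seen. limma-voom called 1, against 1.21% of all genes. On log2(FPKM + 1) and log2(FPKM + 0.1) limma called 0, against 1.27% and 1.47%. The gene called by edgeR was Npc2, the lysosomal cholesterol carrier, at 179, 157, 169 and 168 CPM in cKO and 217, 230, 218 and 233 CPM in WT. The genotypes do not overlap, and edgeR gave an adjusted p of 0.0456 with a log2 fold change of -0.42 ± 0.081 (SE). Leaving out any 1 of the 8 libraries ended this call, with adjusted p from 0.0501 without cKO replicate 2 to 0.135 without WT replicate 4, and the log2 fold change stayed between -0.44 and -0.36. The call also ended with library size only (0.106), no low-count filter (0.0565), at least 1 CPM in 4 libraries (0.0537), and log2(FPKM + 1) or log2(FPKM + 0.1) (0.108 each). With the replicate number as a block it ended as well (0.0899). Psap, the saposin precursor (adjusted p = 0.550), and Lamp2, a lysosomal membrane glycoprotein (adjusted p = 0.295), were the most abundant members that were not called.

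Of 16 listed cornified envelope symbols, 15 were tested, and the other, Loricrin, is a second name of Lor, which was tested. edgeR called 1 lower and 0 higher (5 at an unadjusted p below 0.05, median log2 fold change 0.37, 10 positive and 5 negative). DESeq2, limma-voom and limma on either FPKM scale each called 1. Over all genes edgeR called 0.65% lower and 0.671% higher, and 18.6% had an unadjusted p below 0.05. DESeq2 called 8.63% of all genes and limma-voom 1.21%. On log2(FPKM + 1) and log2(FPKM + 0.1) limma called 1.27% and 1.47%. The median log2 fold change of all tested genes was 0.011. The gene called by edgeR was Tgm3, the transglutaminase whose processing lies downstream of cystatin M/E and cathepsin L in mouse skin, at 225, 153, 178 and 115 CPM in cKO and 350, 432, 293 and 369 CPM in WT. No cKO library reached the WT range (edgeR adjusted p = 0.0363, with a log2 fold change of -1.11 ± 0.20 SE). With single libraries left out, the call was kept without cKO replicate 2 (0.0458) or 4 (0.0442). It was lost without cKO replicate 1 (0.0509) or 3 (0.0737) and without WT replicates 1 to 4 (0.0766, 0.0915, 0.0793 and 0.108). With the replicate number as a block it was lost as well (0.0534). Krtdap, a keratinocyte differentiation protein (adjusted p = 0.781), and Asprv1, a protease that acts on profilaggrin (adjusted p = 0.688), were the most abundant that were not called.

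**Figure D4:**
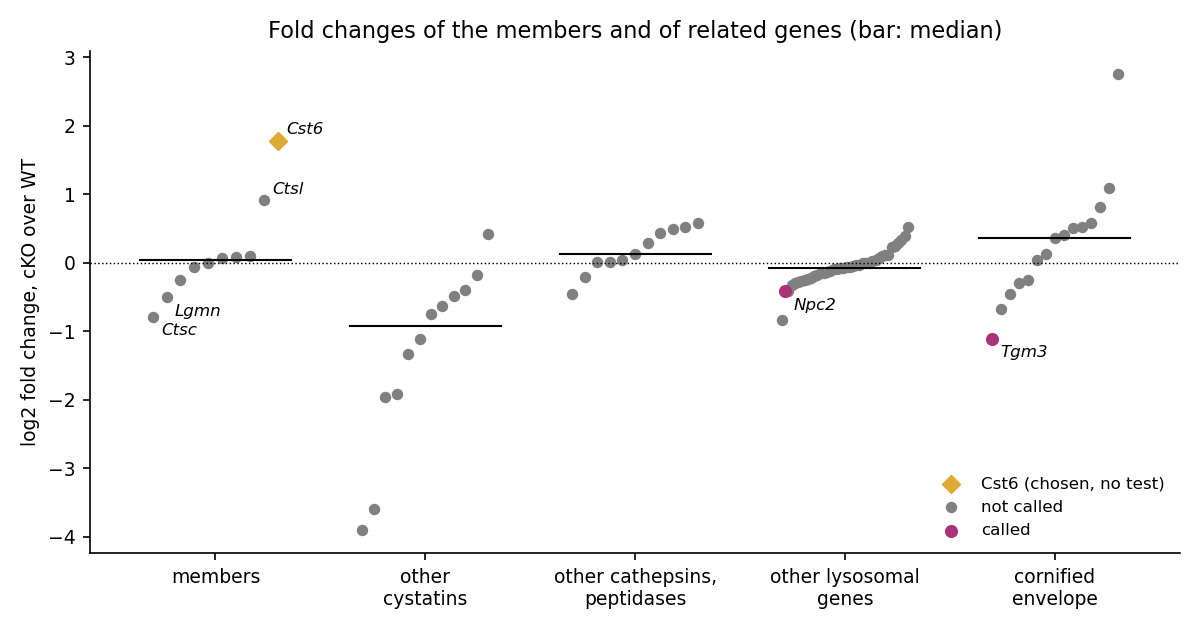
Log2 fold change (cKO over WT) of each member and of each tested gene in the 4 related lists, sorted within a list, with black bars at the medians. Called genes are Npc2 and Tgm3, both lower in cKO, and the other cystatins lie mostly below 0 (median -0.93) while Cst6 stands at 1.78.

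Tested genes averaging 4 CPM or more, other than unnamed gene models and pseudogenes, were ranked by the Pearson correlation of their log2 CPM with that of Cst6 over the 8 libraries. The 5 closest of 10031 were Foxc1 (r = 0.989), Calhm5 (0.985), Pdzrn3 (0.983), Cryab (0.980) and Sprr4 (0.976). Foxc1 encodes a forkhead transcription factor, Calhm5 a calcium homeostasis modulator family protein, Pdzrn3 a ubiquitin ligase, Cryab a small heat shock protein and Sprr4 a cornified envelope protein. These values describe 8 shared libraries that fall into 2 genotypes, so a gene that differs between genotypes scores high whatever it does within them. Foxc1 ran from 33.9 to 47.8 CPM in cKO and from 12.2 to 21.4 CPM in WT. Like Cst6, it was highest in cKO replicate 4 and lowest in WT replicate 4. Pdzrn3 shared these extremes, with 33.2 and 4.87 CPM in those libraries. Among the members, Ctsl had r = 0.761 with Cst6 and ranked 532 of 10031, and Ctsc (-0.855) and Lgmn (-0.806) lay near the opposite end.

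**Figure D5:**
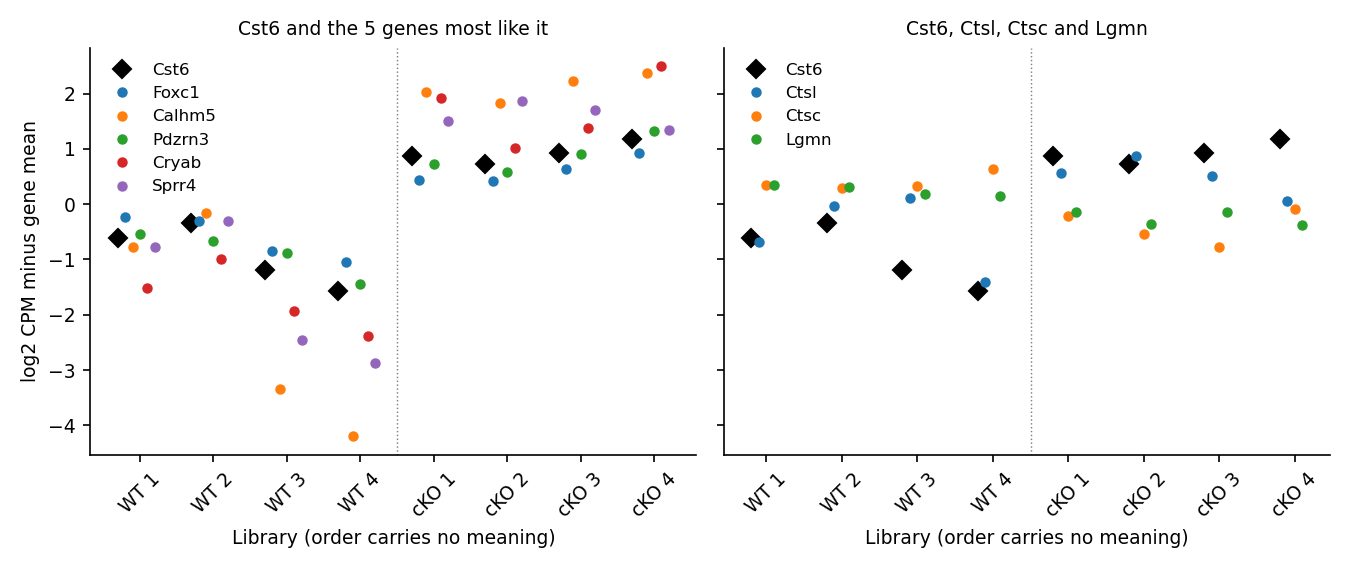
Log2 CPM minus the gene's mean over the 8 libraries, for Cst6 with the 5 genes most like it (left) and for Cst6 with Ctsl, Ctsc and Lgmn (right). The 5 genes lie low in WT replicates 3 and 4 and high in all cKO libraries, while Ctsc and Lgmn lie higher in all WT libraries than in any cKO library.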

How the data were processed

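Epidermal RNA from 8 imiquimod-treated mice (4 cKO, 4 WT) was sequenced from libraries made with the VAHTS Universal V6 kit, per the labels. The authors deposited read counts in whole numbers for each gene symbol, with FPKM values beside them, and HISAT2 and HTSeq are named in the submitters' processing notes. The sources used here give no versions, genome build, annotation or strand setting, so reads of a gene and an antisense neighbour cannot be told apart. For 20863 of 20863 genes with counts in at least 2 libraries, the deposited FPKM equalled the count scaled by 1 length and the library total (tolerance 1e-04), so both tables hold the same reads.

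Samples were grouped by title. Counts were filtered with filterByExpr, scaled with TMM factors and compared by edgeR's quasi-likelihood test (edgeR 4.0.16, R 4.3.3) without covariates, adjusted over 14004 genes by Benjamini-Hochberg, called below 0.05. Standard errors come from the F statistic. The exact two-sided permutation test used log2 CPM over 70 splits. On simulated counts for this comparison over 14004 genes, 53 of 100 genes changed 2-fold and 80 of 100 changed 4-fold were recovered, with 4 false calls. No pair of libraries of 1 genotype agreed within sampling noise (lowest chi-square per degree of freedom 47.9). P-values measure the spread between these mice.

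Members and lists were chosen with earlier results of these data known. Named were all members, Hnrnpu, from each list up to 3 called genes per direction by smallest p and the 2 most abundant not called, and the 5 genes most like Cst6. Of the latter and Cst6 no p is given. Alternatives were DESeq2 1.42.0, limma-voom (limma 3.58.1), RLE factors, library size only, no filter, limma on log2(FPKM + 1) and log2(FPKM + 0.1) above a mean of 0.5 FPKM, a minimum of 1 CPM in 4 libraries, the replicate number as a block, and leaving out each library. Promoter windows were matched by symbol to RefSeq sequences of GRCm38.p6.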

Additional observations from a re-analysis of the deposited data

Results flagged for a closer look

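Of 50 gene and genotype combinations checked for a library that stands apart, 1 met the criterion, where chance gives about 1 in 20. Ctsc was at 383 CPM in WT replicate 4, while the other WT libraries lay between 303 and 313 CPM. The gap to the next library, as a share of the WT range, was 0.868, past the 95% limit of Dixon's test for 4 samples. Without that library the log2 fold change of Ctsc was -0.70 (edgeR adjusted p = 0.132).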

How the results depend on the processing

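Cst3, Ctsl, Ctsb, Ctsc and Lgmn kept their direction under all 17 alternatives. Cst6 did too (log2 fold change 1.60 to 2.01), but it was chosen for being higher in these same libraries, so this is a description only. Over all genes, 185 were called (1.32% of 14004), 1208 by DESeq2 (8.63%), 349 with no low-count filter, and 8 to 506 when single libraries were left out. Of the 9 members other than Cst6, 0 were called, 3 by DESeq2, 1 by limma-voom, 2 with no filter (Ctsc and Lgmn) and 0 to 1 with a library left out. Of the related genes (12, 11, 40 and 15 tested in the 4 lists) 2 were called, 12 by DESeq2 and 5 by limma-voom. With library size only, with no filter, on log2(FPKM + 1) and on log2(FPKM + 0.1) 4 were called, and 0 to 7 with a library left out. The 4 were Csta2, Cstdc4, Cstdc6 and Tgm3 each time, and limma-voom called these and Npc2. Of the 12 called by DESeq2, 7 were other cystatins, whose copies may not be independent. The cause was not tested. Cstb turned positive with library size only (0.052), at least 1 CPM in 4 libraries (0.013), log2(FPKM + 1) (0.041), log2(FPKM + 0.1) (0.041), and without cKO replicates 3 or 4 or WT replicates 3 or 4 (range with single libraries left out -0.13 to 0.13). Ctsh turned positive without cKO replicate 4 or WT replicate 3 (range -0.17 to 0.068), and Ctss (range -0.064 to 0.25) and Ctsd (range -0.0020 to 0.19) turned negative without cKO replicate 1. The sources used here do not say whether replicate numbers pair the libraries, and the values do not settle it. Deviations of same-numbered libraries correlated at -0.09 to 0.18, and 2 of 4 cKO and 3 of 4 WT libraries correlated best with their own number. With the replicate block 216 genes, 1 member (Ctsc, adjusted p = 0.0365) and 3 related genes (Csta2 and Cstdc4, lower, and Lor, higher) were called, with Npc2 (0.0899) and Tgm3 (0.0534) no longer called. Counts of 490 to 869 for Ctss and 693 to 1203 for Lgmn per library are the lowest among the members.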
